A study of Mus musculus with 12 samples.

Results

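Liver and white fat of fasted wild-type mice were compared across all genes. The comparison used 6 of the 12 RNA-seq libraries of the series, picked by their labels: 3 libraries of wild-type (WT) liver and 3 of WT white fat, which the labels call inguinal. By the labels the mice were male, 52 weeks old and fasted for 12 h, and blood was rinsed out with cold buffered saline before the tissues were taken. The WT groups carry no allele, transgene or agent beyond the fast, and the strain is not given in the sources used here. The remaining 6 libraries were the same tissues, with 3 libraries each, from mice of the same sex, age and fast labelled as knockouts (KO) of the microRNA cluster miR-322-503-351, and they were used as a second set of livers and fat in which to look at the same difference. The labels do not say whether liver 1 and fat 1 came from 1 mouse, or whether the libraries of a group came from separate mice, so the p-values below measure the spread between these libraries.

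The liver makes most of the proteins of the blood plasma, turns ammonia into urea, makes and releases glucose and ketone bodies during a fast, converts cholesterol into bile acids and breaks down foreign compounds. White fat stores triglyceride in large droplets, releases fatty acids when insulin is low and catecholamines are high, and secretes hormones such as leptin and adiponectin. Both tissues also hold endothelial cells, macrophages and matrix-producing cells. In RNA from whole tissue, fewer cells of a type and less RNA per cell cannot be told apart.

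Levels are given as read counts per 1000000 after TMM scaling (normalised CPM), in the order of libraries 1, 2 and 3 of each tissue. Differences are log2 fold changes of liver minus fat ± their standard error (SE), so a positive value is a higher level in liver, and adjusted p is the Benjamini-Hochberg value of edgeR's quasi-likelihood test over all 15715 genes tested. A gene counts as higher in a tissue when its adjusted p was under 0.05. For a gene with no count in 1 tissue, the fold is a lower bound, computed against 3 counts over the 3 libraries of that tissue.

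The libraries differed in make-up before any single gene was considered. Totals lay between 14531438 and 15971178 counts. In liver, the 100 most abundant genes of each library held 42.1% ± 0.0604 of the counts (SD, n = 3), against 26.3% ± 0.565 in fat (exact two-sided permutation test, p = 0.10, the smallest that 3 against 3 libraries allow). A count was found for 19479 to 19739 genes per liver library and for 22103 to 22550 per fat library. Alb alone, the gene of serum albumin, took 8.98% ± 0.306 of all liver counts. TMM scaling balances such make-up. Scaling by library totals in its place moved the log2 differences by -0.83, toward fat, so moderate differences below are relative to that choice.

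Both tissues held the genes that define them. Of the genes typical of fat, Adipoq (adiponectin), Lep (leptin), Plin1 (the perilipin that coats fat droplets), Aqp7 (a glycerol channel), Lgals12 and Slc7a10 had no count in any of the 3 livers, and Alb stood at 113929 or more normalised CPM in each of them. Of the 25 tested adipocyte markers, 21 were higher in fat and 3 higher in liver, namely Pck1, Gpd1 and Acsl1, enzymes that liver uses as well and whose calls ended with library totals. Ucp1, the uncoupling protein of brown fat, stood at 0, 0 and 0.103 normalised CPM in fat. The labels call the fat inguinal, and a few genes known from fat depots were looked at. Tbx15, Shox2, En1 and Hoxc10, which are known for subcutaneous depots, stood at or near 0, between 0 and 0.990 normalised CPM. Genes of the mesothelium, the lining of the body cavities, were present, with Upk3b at 117, 118 and 167, Msln at 52.7, 67.7 and 64.5 and Wt1 at 21.3, 15.4 and 19.6 normalised CPM in fat. These 3 mesothelial genes were chosen after their values were seen. The series holds no other fat depot to compare with, and the depot was not tested. The tissue is called white fat, or fat, below, with no depot. Of 9 tested keratinocyte and epithelial markers 6 were higher in liver and 3 in fat, the latter Krt14, Trp63 and Sfn. The adjusted p of Sfn was 0.0175, and 0.0706 without liver 1, 0.0764 without liver 2 and 0.0546 without fat 2. In fat the skin keratin Krt14 stood at 1.37, 4.0 and 1.97 normalised CPM, and Krt5 and Krt15 had no count. Of 4 tested skeletal muscle markers 3 were higher in fat, namely Acta1, Myl1 and Actn3. The muscle actin gene Acta1 stood at 159, 133 and 47.4 and Myl1 at 24.6, 25.8 and 21.0 normalised CPM in fat, while Ckm, Mb and Tnnc2 had no count there. The part of skin or muscle in these values was not tested.

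Fat 1 stood apart from fat 2 and fat 3 in the genes of hepatocytes. Over 38 hepatocyte markers, the median level in fat 1 was 1.42% of the liver mean, against 0.137% in fat 2 and 0.0592% in fat 3, and 31 of the 38 markers in fat 1 lay between 1 and 2%. Without fat 1, the median difference of the plasma protein markers was 9.98 in place of 7.54. Below, the value without a library follows a gene's difference wherever leaving it out moved the difference by over 1.5 times or ended the call. The part of liver RNA in the values of fat 1 was not tested. The fat libraries also differed in immune cell genes. The macrophage gene Gpnmb stood at 18.3, 61.5 and 617 normalised CPM and Trem2 at 3.77, 6.90 and 60.8, highest in fat 3. The B cell gene Cd79a stood at 1.37, 10.3 and 3.10, highest in fat 2. The summed level of 20 B cell and lymph node markers was 224, 930 and 1154 normalised CPM, highest in fat 3.

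**Figure D1:**
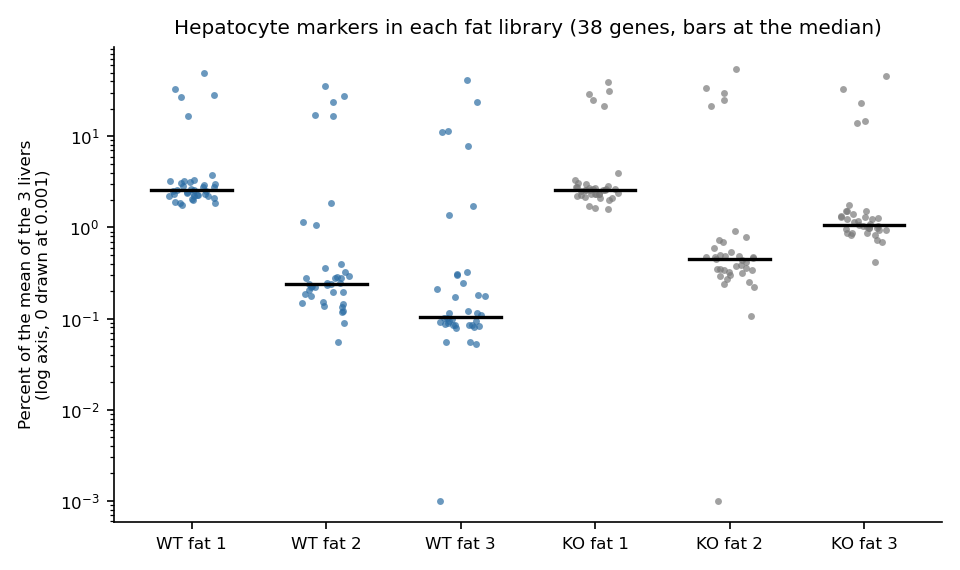
Level of 38 hepatocyte markers in each fat library as a percentage of their mean over the 3 livers of the same genotype (log axis, library-total scaling, 1 point per gene, bars at the median). WT fat 1, 2 and 3 sit at medians of 2.56, 0.241 and 0.105%, and KO fat 1, 2 and 3 at 2.56, 0.445 and 1.07%.

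Most genes differed between the tissues. Of 15715 genes tested, 11136 (70.9%) passed the threshold, 5270 (33.5%) with the higher level in liver and 5866 (37.3%) with the higher level in fat. With library totals in place of TMM factors the split was uneven, and 22.0% of the calls were higher in liver against 47.3% with TMM. A difference of at least 4-fold was found for 1891 genes (12.0%) in liver and for 3278 (20.9%) in fat. The ranges of the tissues did not overlap for 11967 genes (76.2%). Against this background, that most members of a list passed is no result about the list, so its direction, median and members' values are given. Genes with no count in 1 tissue and a mean of at least 1 normalised CPM in the other numbered 324 for fat, of which 258 were protein-coding, and 129 for liver, of which 53 were. A count in fat 1 alone kept genes such as Mup15, at 2.07, 0 and 0 normalised CPM in fat, out of the liver number. A level of 3 counts in 1 library equalled 0.267 normalised CPM on average in liver and 0.146 in fat. These numbers therefore do not measure which tissue holds more such genes.

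**Figure D2:**
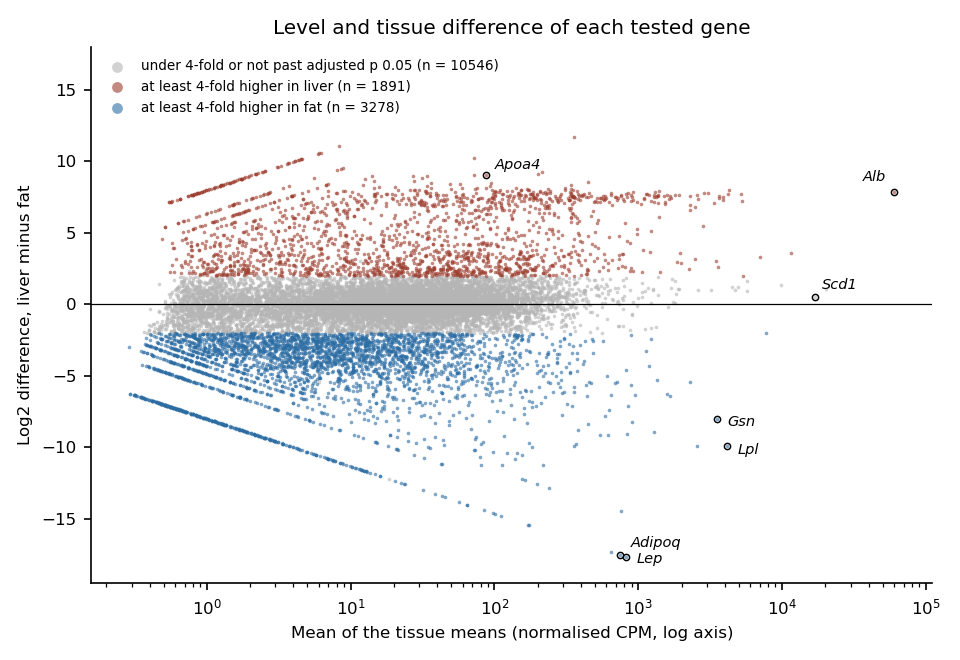
Log2 difference between WT liver and WT fat (vertical axis, liver minus fat) against the mean of the 2 tissues' normalised CPM (horizontal log axis) for all 15715 genes tested. Coloured points passed the adjusted p and differed at least 4-fold, 1891 with the higher level in liver and 3278 in fat; genes with no liver count, whose fitted value depends on the prior count, reach down to Lep at -17.67.

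Per kilobase of transcript, the liver was led by plasma and lipoprotein genes. Alb stood at 51193 normalised CPM per kilobase on average, followed among nuclear genes by Apoe and Apoa2, which encode proteins of lipoprotein particles, Apoa1, the main protein of HDL, Mup3, a urinary pheromone carrier, and Cyp2e1, an ethanol-metabolising cytochrome P450. In fat the nuclear genes at the top were Car3 at 4303, Scd1 at 2924, Gsn at 2225 and Fth1 at 2033 normalised CPM per kilobase. Car3 encodes a carbonic anhydrase abundant in adipocytes, and Gsn the actin-severing protein gelsolin. Mitochondrially encoded genes filled the other places among the 10 highest of each tissue. Alb itself stood at 113929, 125416 and 120339 normalised CPM in liver and at 1386, 94.9 and 57.7 in fat. Its difference was 7.87 ± 1.76 (adjusted p = 0.0122), and 10.62 without fat 1. Every liver lay far above every fat library, and fat 1 above the other fat libraries. Gsn stood at 27.9, 25.5 and 26.6 in liver and at 10279, 6587 and 4208 in fat, a difference of -8.04 ± 0.40 (adjusted p = 7.61e-07), with fat 1 highest. Scd1, the desaturase that makes oleate, was abundant in both tissues. It stood at 9102, 20838 and 29722 in liver and 17471, 13022 and 11923 in fat. The ranges overlapped, liver 1 lay below every fat library, and the difference was not past the threshold (adjusted p = 0.317). Fth1, the ferritin heavy chain, stood at 1528, 1989.9 and 2082 in liver and 1646, 1778 and 1859 in fat, and its difference of 0.08 ± 0.17 also missed the threshold (adjusted p = 0.675).

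The protein-coding genes with the largest fitted differences toward fat, among those of at least 100 normalised CPM, were Lep, Adipoq, Plin1, Apol6, Glb1l2, Aqp7, Lgals12, Ankef1, Aoc3, Slc7a10, Tmem182 and Tshr, and all but Aoc3 had no count in liver. Lep stood at 639, 1794 and 2484 normalised CPM in the 3 fat libraries, at least 18159.9-fold above the liver floor (adjusted p = 0.00130). Adipoq stood at 1633, 1658 and 1188 (at least 16909.9-fold, adjusted p = 3.2e-07). Leptin transcripts varied more between the fat libraries than those of adiponectin, with fat 1 lowest. Plin1 stood at 1348, 1419 and 1104 and was at least 14592-fold higher. Tshr, the receptor of thyroid-stimulating hormone, stood at 116, 147 and 124 and was at least 1452-fold higher. Aoc3, a vascular amine oxidase, had 2 counts over the 3 livers and 1691, 1685 and 1160.2 normalised CPM in fat, a ratio of 25714 with an exact Poisson interval (95%, counting error only) from 7118 to 212330.

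Toward liver the same rule took Gm21320, Aqp8, Mup15, Mup17, Hcn3, Apoa4, Cyp2a5, BC025446, Hsd3b3, Pklr, Aspdh and Ces2e. This ranking holds for the fit with fat 1. Without fat 1, Hcn3 differed by 9.64 and Hsd3b3 by 9.52, less than Alb at 10.62 and Mat1a at 10.71, which the rule did not take. Apoa4, an apolipoprotein of triglyceride-rich particles, stood at 151, 152 and 223 normalised CPM in liver and 0.707, 0.190 and 0.0517 in fat, with fat 1 highest in fat (9.05 ± 0.56, adjusted p = 1.94e-05, 10.38 without fat 1). Cyp2a5, a cytochrome P450 that acts on nicotine and coumarin, stood at 528, 1081 and 1073 in liver and 6.13, 0.476 and 0.414 in fat (8.57 ± 1.52, adjusted p = 0.00534, 10.95 without fat 1). Its lowest liver level was in liver 1. Aqp8, a water channel, stood at 57.7, 180.0 and 197 in liver and 0.188, 0 and 0.155 in fat and was also lowest in liver 1. Mup15 stood at 1055, 138 and 99.6 in the 3 livers, highest in liver 1, and at 2.07, 0 and 0 in fat (9.24 ± 2.16, adjusted p = 0.0143, 7.39 without liver 1, and too few counts for a fold without fat 1 (adjusted p = 0.0568), 8.64 without fat 2, 8.65 without fat 3). Mup15 and Mup17 belong to the near-identical Mup family and Gm21320 lies within its cluster, so the counting may have moved reads among them. Hcn3 overlaps Pklr on the opposite strand by 711 bases, so its values are uncertain too.

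Promoters of a few such genes show the letters that stand before their start. The windows below run from 250 bases before to 50 after the annotated start of the gene (RefSeq, GRCm38.p6) and were picked because each holds a match to a motif of a factor known from its tissue; the matched letters are in capitals. Cyp8b1 holds the HNF4 motif CAAAGTCCA, Lep the C/EBP motif TTGCGCAA, and Plin1 the EBF motif TCCCNNGGG, each searched on both strands. The Cyp8b1 window also holds the TATA box TATAAA.
Cyp8b1 (chr9:121916256-121916555, minus strand, liver): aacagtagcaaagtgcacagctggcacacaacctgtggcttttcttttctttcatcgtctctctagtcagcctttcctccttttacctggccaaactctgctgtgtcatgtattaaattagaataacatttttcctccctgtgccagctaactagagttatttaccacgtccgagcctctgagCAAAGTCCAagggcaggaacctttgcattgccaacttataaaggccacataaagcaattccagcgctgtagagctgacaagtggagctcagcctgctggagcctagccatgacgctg
Lep (chr6:29059971-29060270, plus strand, fat): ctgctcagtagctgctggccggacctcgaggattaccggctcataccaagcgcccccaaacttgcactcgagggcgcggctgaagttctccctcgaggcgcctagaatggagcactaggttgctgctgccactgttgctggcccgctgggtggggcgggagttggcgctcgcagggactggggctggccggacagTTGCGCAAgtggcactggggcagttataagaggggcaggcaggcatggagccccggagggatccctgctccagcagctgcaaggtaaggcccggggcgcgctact
Plin1 (chr7:79732727-79733026, minus strand, fat): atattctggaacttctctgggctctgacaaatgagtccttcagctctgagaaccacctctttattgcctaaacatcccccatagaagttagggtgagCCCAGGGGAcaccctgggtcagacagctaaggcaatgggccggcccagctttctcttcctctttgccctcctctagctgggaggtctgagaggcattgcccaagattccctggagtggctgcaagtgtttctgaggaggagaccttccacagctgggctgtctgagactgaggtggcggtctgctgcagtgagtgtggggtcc

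In these windows the first matched base lies 67 bases before the start of Cyp8b1, 55 before that of Lep and 153 before that of Plin1. The same motifs were looked for in all 25038 windows of 300 bases, and 11310 of the tested genes had one. The HNF4 letters stood in 2.00% of the genes at least 4-fold higher in liver and 0.570% of those at least 4-fold higher in fat. They stood in 0.440% of the other tested genes and 0.537% of all 20484 genes with a window. In the same order, the C/EBP letters stood in 0.154, 0.351, 0.362 and 0.234%, and the short EBF letters in 10.5, 11.5, 8.80 and 8.19%. The TATA box letters stood in 15.1, 12.1, 7.93 and 14.7%. The motifs were chosen after a wider look at these windows, and the shares are descriptions with no test.

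**Figure D3:**
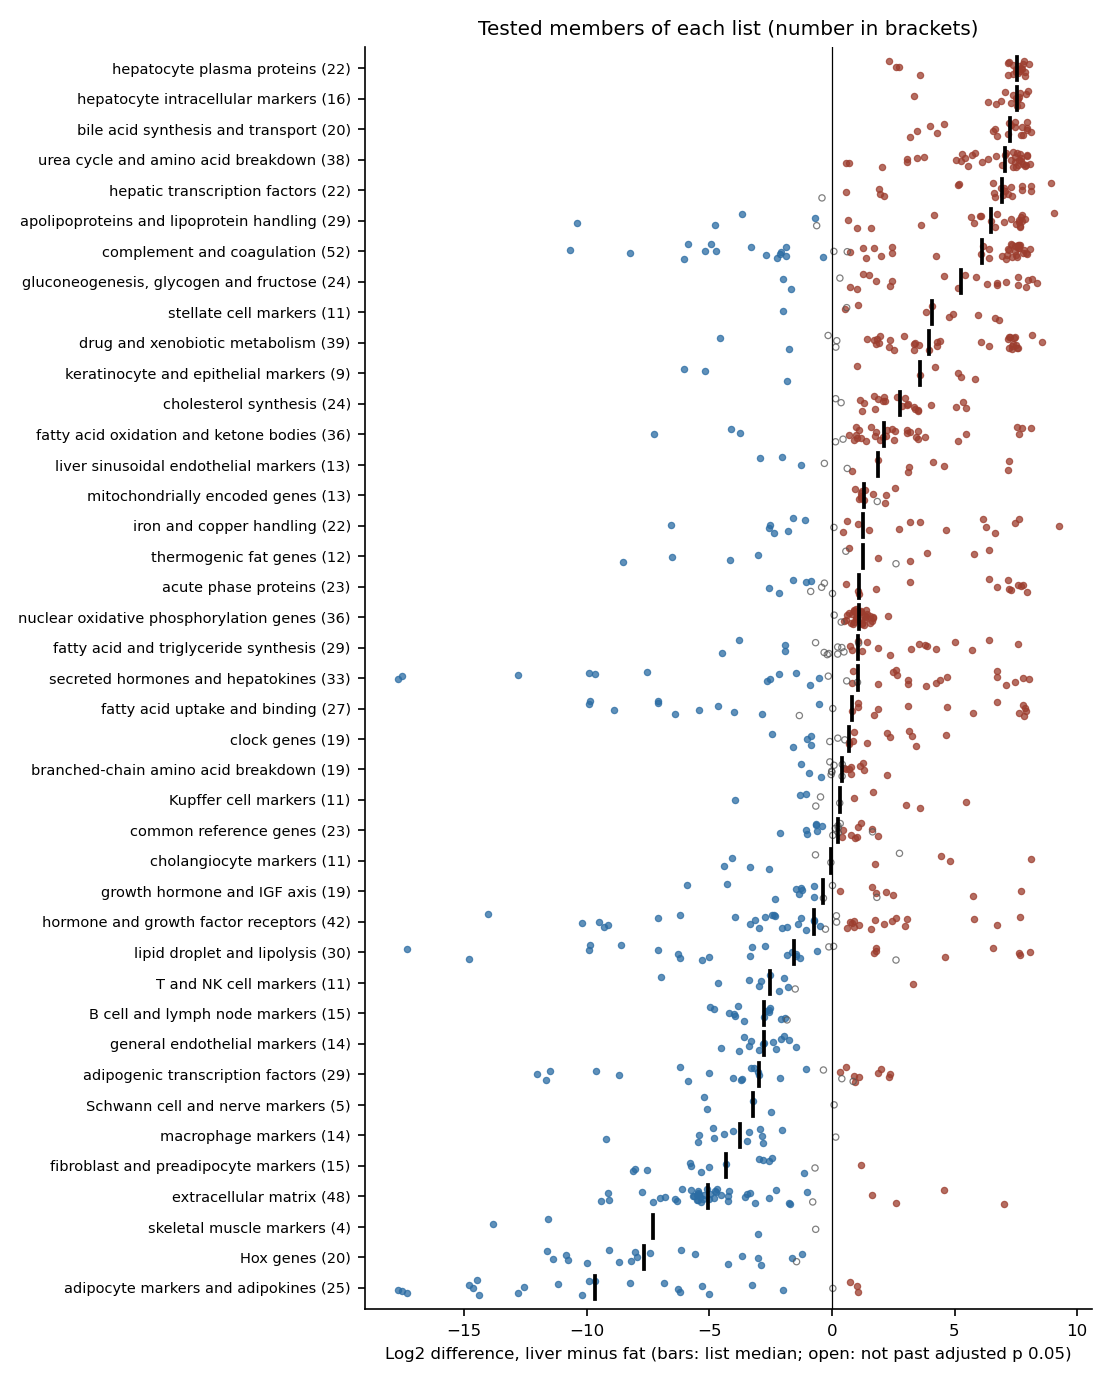
Log2 difference of WT liver minus WT fat for each tested member of the gene lists (points, filled where the adjusted p was under 0.05), with the list median as a bar; 0 marks equal levels. The medians run from -9.64 for the adipocyte markers to 7.54 for the plasma proteins of hepatocytes, and Hox, matrix and macrophage genes lie on the fat side.

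The genes of plasma proteins were higher in liver: of 22 tested markers, 22 passed toward liver and none toward fat, with a median difference of 7.54 against -0.05 over all genes tested. Ttr, the thyroxine and retinol carrier transthyretin, stood at 5446, 6358 and 6353 normalised CPM in liver and 71.2, 6.38 and 3.72 in fat (7.80 ± 1.61, adjusted p = 0.00931, 10.23 without fat 1). Some plasma protein genes had a sizeable level in fat. Rbp4, which carries retinol, stood at 3659, 3447 and 3697 in liver and 331, 348 and 229 in fat (3.57 ± 0.21, adjusted p = 1.38e-06). Agt, the angiotensin precursor, stood at 983, 986 and 984 in liver and 269, 154 and 62.0 in fat (2.61 ± 0.51, adjusted p = 0.00398, 3.19 without fat 1). Serpinf1 stood at 884, 881 and 899 in liver and 133, 182 and 209 in fat (2.35 ± 0.20, adjusted p = 1.08e-05). In these 3 genes fat 2 and fat 3 held at least 62.0 normalised CPM as well as fat 1, and every liver still lay above every fat library.

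Acute phase proteins, which the liver releases in inflammation, split. Of 23 tested, 14 were higher in liver and 5 in fat, or 11 in liver and 8 in fat with library totals. Crp stood at 406, 396 and 369 normalised CPM in liver and 6.17, 0.714 and 0.414 in fat (7.31 ± 1.23, adjusted p = 0.00437, 9.41 without fat 1). Hp, the haemoglobin scavenger haptoglobin, was abundant in both, at 3668, 3629.6 and 3279 in liver and 1283, 1466 and 2378 in fat (1.04 ± 0.24, adjusted p = 0.00401), a call that ended with library totals (adjusted p = 0.411). Saa3, the serum amyloid made outside the liver, stood at 4.16, 3.82 and 3.19 in liver and 9.14, 11.8 and 29.4 in fat (-2.17 ± 0.47, adjusted p = 0.00414, -1.51 without fat 3), opposite to Saa1 and Saa4. The ranges of liver and fat did not overlap in these 3 genes. The metallothioneins Mt1 and Mt2, Steap4 and Cebpd were the other acute phase genes higher in fat.

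Complement and clotting factors divided between the tissues. Of 52 tested, 35 were higher in liver and 15 in fat. The liver side held the fibrinogen chains, prothrombin and most soluble factors. Fga, a fibrinogen chain, stood at 5077, 4568 and 4053 in liver and 65.3, 5.0 and 1.5 in fat (7.57 ± 1.84, adjusted p = 0.0165, 10.45 without fat 1, 6.98 without fat 3). C3, the central complement protein, stood at 9138, 8919 and 7544 in liver and 1942, 1692 and 2687 in fat (2.02 ± 0.21, adjusted p = 3.85e-05). On the fat side stood Cfd, the gene of the adipokine adipsin, at 2.30, 4.42 and 11 in liver and 3444, 1372 and 558 in fat (-8.24 ± 1.21, adjusted p = 0.00257, -9.04 without liver 3, -7.35 without fat 1), with fat 1 highest and fat 3 lowest. Thus the liver libraries differed little in C3 and the fat libraries differed several-fold in Cfd. C1qa, C1qb and C1qc, made by macrophages, C7, Vwf and Thbd of the endothelium, F13a1, and Plat and Plau, which activate plasminogen in fibrin breakdown, were also higher in fat. Within the membrane attack complex the direction changed from gene to gene, since Hc, C6, C8a, C8b, C8g and C9 were higher in liver and C7 in fat, at 1.06, 0.607 and 1.73 in liver and 54.5, 34.0 and 33.9 normalised CPM in fat (-5.17 ± 0.36, adjusted p = 4.58e-06).

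Amino acid breakdown genes were higher in liver without exception among those tested, 38 of 38, with a median difference of 7.07, or 7.97 without fat 1. Cps1, which fixes ammonia in the first step of the urea cycle, stood at 6067, 4690.2 and 4747 normalised CPM in liver and 86.6, 4.38 and 2.48 in fat (7.37 ± 1.87, adjusted p = 0.0192, adjusted p = 0.0501 without liver 1, 10.56 without fat 1, 6.79 without fat 3). Of the later steps 2 are given here. Ass1, which joins citrulline and aspartate, stood at 2556, 2593 and 3015 in liver and 31.6, 15.1 and 12.5 in fat (7.11 ± 0.43, adjusted p = 3.19e-06). Asl, the next enzyme, stood at 966, 994 and 1079 in liver and 28.9, 15.7 and 13.6 in fat (5.71 ± 0.33, adjusted p = 1.56e-06), with every fat library at 12.5 or more in both genes. The smallest differences of the list were those of Gcsh and Gstz1, at 0.59 ± 0.20 and 0.70 ± 0.17 (adjusted p = 0.0292 and 0.00547), and both changed sign with library totals; leaving out 1 library ended the call of Gcsh, with an adjusted p of 0.0913 without liver 2 and 0.0698 without liver 3.

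Branched-chain amino acids, which other tissues break down first, gave another picture. Of 19 genes 9 were higher in liver, 3 in fat and 7 did not pass, with a median of 0.42. With library totals these counts turned to 2 and 9, so the direction of the list rests on the scaling. Bcat2, the mitochondrial aminotransferase that starts the pathway, was higher in fat at 124, 108 and 82.4 normalised CPM against 74.0, 46.8 and 46.3 in liver (-0.91 ± 0.22, adjusted p = 0.00667). Bckdk, the kinase that switches the next enzyme complex off, was also higher in fat (-1.25 ± 0.18, adjusted p = 0.000277), and Ppm1k, the phosphatase that switches it on, was higher in liver, at 98.9, 83.8 and 92.6 in liver against 25.4, 17.1 and 15.5 in fat (2.25 ± 0.19, adjusted p = 1.18e-05). These 3 kept their directions with library totals, and their ranges did not overlap.

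Genes of glucose output and glycogen were higher in liver in 21 of 24 cases. G6pc, which frees glucose from its phosphate, stood at 863, 1112 and 809.6 normalised CPM in liver and 12.1, 1.90 and 0.465 in fat (7.58 ± 1.46, adjusted p = 0.00728, 9.59 without fat 1). Pck1, the cytosolic PEP carboxykinase, is used by liver for glucose and by fat for the glycerol of triglyceride, and it was abundant in both. It stood at 4839, 3454 and 4696 in liver and 3077, 2312 and 977 in fat (1.03 ± 0.39, adjusted p = 0.0488, adjusted p = 0.139 without liver 1, adjusted p = 0.0593 without liver 2, adjusted p = 0.126 without liver 3, adjusted p = 0.106 without fat 2); the ranges did not overlap, and the difference lies close to the threshold. Its mitochondrial relative Pck2 was higher in fat, at 33.2, 25.8 and 23.3 in fat against 9.21, 5.29 and 6.48 in liver (-1.97 ± 0.24, adjusted p = 9.38e-05). Pcx, pyruvate carboxylase, which both gluconeogenesis and fat synthesis need, stood at 695, 899.7 and 1004 in liver and 788, 718 and 567 in fat and did not pass (adjusted p = 0.170). Gys2, the liver glycogen synthase, stood at 497, 503 and 473 in liver and 8.06, 12.5 and 21.5 in fat (5.13 ± 0.38, adjusted p = 1.24e-05), and in contrast to the hepatocyte markers it was lowest in fat 1.

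Fatty acid oxidation and ketone body genes were higher in liver in 31 of 36 cases, with a median of 2.14 that moved only to 2.12 without fat 1. Cpt1a, the gate of fatty acids into mitochondria, stood at 1112, 1060.0 and 955 in liver and 119.5, 115 and 137 in fat (3.08 ± 0.16, adjusted p = 8.59e-07). Oxct1, which lets a tissue burn ketone bodies and which liver is known to lack, went the other way, at 3.10, 1.39 and 1.73 in liver and 237, 365 and 359 in fat (-7.27 ± 0.35, adjusted p = 1.17e-06). The other 2 genes of this list higher in fat were Pdk4, the kinase that shuts pyruvate out of oxidation, at 103, 170.4 and 289 in fat against 15.8, 12.6 and 13.5 in liver (-3.75 ± 0.42, adjusted p = 0.000335), and Abcd2, a peroxisomal transporter, at 494, 574 and 465 in fat against 15.4, 37.5 and 35.0 in liver (-4.12 ± 0.35, adjusted p = 2.42e-05). None of these ranges overlapped between the tissues. In liver the Abcd2 relative Abcd3 stood at 1006, 1058 and 1114 against 89.0, 89.6 and 96.5 in fat (3.53 ± 0.15, adjusted p = 3.46e-07).

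In fatty acid synthesis the core enzymes did not separate the tissues. Fasn, fatty acid synthase, stood at 1094, 1884 and 1513 in liver and 1381, 1705 and 2033 in fat (adjusted p = 0.492). Acaca, which makes its substrate, stood at 198, 235 and 212 in liver and 375, 218 and 209.8 in fat (adjusted p = 0.246). Dgat2, which adds the last acyl chain of triglyceride, stood at 843, 951 and 1036 in liver and 529.9, 1237 and 1312 in fat (adjusted p = 0.747). The ranges overlapped for each of these 3 genes. Of the 29 genes of the list, 16 were higher in liver and 4 in fat, or 12 and 8 with library totals. The elongases Elovl2, Elovl3, Elovl5 and Elovl6 and the desaturases Fads1 and Fads2 were on the liver side, with Fads2 at 688, 736 and 768 in liver against 20.7, 10.2 and 10.5 in fat (5.72 ± 0.33, adjusted p = 1.6e-06) and Elovl2 at 738, 684 and 684 in liver against 9.75, 0.619 and 0.465 in fat (7.59 ± 1.55, adjusted p = 0.00902, 10.32 without fat 1). On the fat side was the desaturase Scd2, at 64.1, 161 and 386 in fat against 7.44, 9.37 and 11 in liver (-4.46 ± 0.80, adjusted p = 0.00566, -3.62 without fat 3) and highest in fat 3. Dgat1, which shares the last step with Dgat2, was higher in fat as well. Pnpla3, a relative of the lipase Pnpla2, was higher in fat too, at 69.2, 111 and 102 in fat against 0.531, 12.7 and 7.39 in liver (-3.77 ± 0.87, adjusted p = 0.0139, -4.56 without liver 2, adjusted p = 0.0608 without liver 3).

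Droplet and lipolysis genes stood mostly on the fat side, 19 of 30, with 8 on the liver side. The lipases Pnpla2, Lipe and Mgll, which free fatty acids from stored fat step by step, were in the first group. Pnpla2, which removes the first fatty acid, stood at 205, 208 and 232 in liver and 2719, 2117 and 1295 in fat (-3.25 ± 0.28, adjusted p = 1.2e-05). Lipe, the hormone-sensitive lipase, stood at 37.7, 38.3 and 32.5 in liver and 1202, 1347 and 992 in fat (-5.03 ± 0.20, adjusted p = 2.56e-07). Mgll stood at 387, 359 and 424 in liver and 1042, 1182 and 1029 in fat (-1.48 ± 0.16, adjusted p = 4.24e-05). No liver reached the lowest fat library in any of the 3. Adrb3, the catecholamine receptor of adipocytes, stood at 11.8, 6.42 and 6.02 in liver and 825, 658 and 273 in fat (-6.18 ± 0.57, adjusted p = 0.000122), with fat 3 lowest. The droplet coat proteins divided by tissue. Plin1 and Plin4 were higher in fat, Plin2 and Plin5 in liver (Plin2 with an adjusted p of 0.0546 with library totals), and Plin3 stood at 39.1, 41.5 and 38.9 in liver and 32.8, 38.9 and 42.1 in fat (adjusted p = 0.632). Cidec, which fuses droplets, stood at 22.2, 33.6 and 68.1 in liver and 3224, 3553 and 2679 in fat, whereas Cideb stood at 86.6, 91.3 and 98.4 in liver and 1.32, 0 and 0 in fat. Both genes of this pair kept the tissues apart. Hsd17b13, a droplet enzyme of hepatocytes, stood at 471, 445 and 484 in liver and 4.99, 0.0952 and 0 in fat (8.08 ± 1.79, adjusted p = 0.0120, and too few counts for a fold without fat 1, 7.49 without fat 2, 7.47 without fat 3). G0s2, which inhibits Pnpla2, was higher in liver at 392, 339 and 291 in liver against 92.5, 109 and 93.0 in fat (1.79 ± 0.16, adjusted p = 1.48e-05).

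Fatty acid uptake followed different proteins in each tissue, with 14 of 27 genes higher in liver and 11 in fat, or 11 and 13 with library totals. Lpl, which frees fatty acids from circulating triglyceride, stood at 12.0, 7.11 and 7.67 normalised CPM in liver and 6403, 8616 and 9952 in fat (-9.86 ± 0.36, adjusted p = 1.99e-07). Cd36, a fatty acid transporter, stood at 41.7, 115 and 155 in liver and 3611, 4481 and 5269 in fat (-5.42 ± 0.54, adjusted p = 0.000123). Cav1, the main caveolin, stood at 6.37, 4.25 and 5.75 in liver and 2083, 2879.7 and 2776 in fat (-8.88 ± 0.29, adjusted p = 1.48e-07). All 3 fat libraries lay above all livers in these genes. On the liver side, Slc27a2, a fatty acid transporter with acyl-CoA synthetase activity, stood at 2425, 2177 and 2447 in liver against 32.0, 2.86 and 0.672 in fat (7.63 ± 1.8, adjusted p = 0.0149, 10.36 without fat 1, 7.04 without fat 3). Its relative Slc27a5, which also activates bile acids, stood at 1211, 1329 and 1345 in liver against 15.5, 1.38 and 0.621 in fat (7.79 ± 1.61, adjusted p = 0.00930, 10.32 without fat 1). Of the Lpl inhibitors, Angptl8 was higher in liver (4.69 ± 0.29, adjusted p = 2.31e-06) and Angptl4 in fat (-0.53 ± 0.15, adjusted p = 0.0102, adjusted p = 0.0577 without liver 2, adjusted p = 0.0560 without fat 2), with 400.4, 354 and 389 in liver and 497, 582 and 569 in fat.

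Most lipoprotein, bile acid and xenobiotic genes were higher in liver. Of 29 lipoprotein genes 24 were higher in liver, of 20 bile acid genes 20, and of 39 xenobiotic genes 34. Apoe, known from many tissues, was abundant in fat too, at 18796, 21748 and 23939.7 in liver and 2531, 1717 and 972 normalised CPM in fat (3.63 ± 0.35, adjusted p = 4.3e-05), and fat 1 was highest in fat. Apod, Abca1 and Abcg1, the last 2 of which export cellular cholesterol, were higher in fat. Abcg1 stood at 3.28, 4.94 and 3.29 in liver and 107, 106 and 105 in fat (-4.78 ± 0.17, adjusted p = 1.97e-07). Cyp7a1, the rate-limiting enzyme of bile acid synthesis, stood at 51.0, 168 and 137 in liver and 1.08, 0.143 and 0 in fat (8.12 ± 1.03, adjusted p = 0.00156, and too few counts for a fold without fat 1), with liver 1 lowest. Cyp8b1, which sets the share of cholic acid, stood at 325, 243 and 350.2 in liver and 4.90, 0.619 and 0.517 in fat (7.23 ± 1.06, adjusted p = 0.00269, 9.06 without fat 1). In both genes every liver lay above every fat library. Cyp2e1 was high in liver at 11843, 13334 and 12947 and present in fat at 2008, 1194 and 553 (3.34 ± 0.46, adjusted p = 0.000579). The xenobiotic genes higher in fat were Cyp1b1, at 63.0, 39.3 and 50.5 in fat against 2.48, 1.91 and 2.10 in liver (-4.55 ± 0.23, adjusted p = 6.99e-07), and Fmo2, while Ces1d stood at 804, 1010.0 and 1142 in liver and 1203, 881 and 488 in fat (adjusted p = 0.585).

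Cholesterol synthesis genes were higher in liver in 22 of 24 cases, with a median of 2.77. Sc5d, an enzyme of the late steps, stood at 446, 585 and 476 in liver and 54.8, 86.3 and 96.0 in fat (2.67 ± 0.24, adjusted p = 1.46e-05). Insig1, which holds the pathway's regulators back when sterols are plentiful, stood at 309, 345 and 274 in liver and 40.0, 70.7 and 107 in fat (2.09 ± 0.34, adjusted p = 0.00115). Hmgcs1 and Mvk did not pass (adjusted p = 0.517 and 0.549): Hmgcs1 stood at 134, 218 and 138 in liver and 52.5, 166 and 159 in fat.

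Transcription factors known from each tissue followed it in most cases. Of 22 tested hepatic factors 21 were higher in liver. Hnf4a, the nuclear receptor that maintains hepatocyte identity, stood at 877, 632 and 839 normalised CPM in liver and 13.6, 0.714 and 0.259 in fat (7.32 ± 1.79, adjusted p = 0.0168, 10.61 without fat 1, 6.73 without fat 3). Onecut1 varied within liver, at 15.8, 102 and 86.9, lowest in liver 1. Gata6 alone did not pass, at 16.2, 13.5 and 16 in liver and 26.6, 17.7 and 16.1 in fat (adjusted p = 0.119). Of 29 factors of fat cell formation, 17 were higher in fat and 9 in liver, or 4 in liver and 19 in fat with library totals. Pparg, the master regulator of adipocytes, stood at 4.51, 13.9 and 15.2 in liver and 140.4, 172 and 132 in fat (-3.72 ± 0.46, adjusted p = 0.000663). Ebf2, a factor of fat precursor cells, was at 0 in liver and 42.6, 27.8 and 26.3 in fat (at least 365-fold). Cebpa, which both cell types need, stood at 993, 916 and 981 in liver and 736, 668 and 514 in fat (0.59 ± 0.17, adjusted p = 0.0144, adjusted p = 0.0783 without fat 2, adjusted p = 0.0586 without fat 3), and its sign turned with library totals. Cebpb and Klf15 were also higher in liver (2.36 ± 0.15 and 2.01 ± 0.19, adjusted p = 2.29e-06 and 2.35e-05).

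Hox genes, which record position along the body axis, had little or no signal in liver. The list holds 39 genes, of which 10 had no count in any of the 6 libraries and 20 had enough counts to be tested. Of these, 19 were higher in fat and none in liver, with a fitted median of -7.67, or -4.85 with the 9 genes absent from liver set at their bounds. Those 9 genes passed the filter on low counts through fat alone, which set their direction, so the count of 19 is no test of the list. Hoxc8 stood highest, at 62.9, 78.0 and 64.7 normalised CPM in fat, and had 2 counts over the 3 livers. Hoxd8 stood at 23.9, 24.3 and 26.3 (at least 279-fold), Hoxc6 at 23.5, 23.2 and 14.8 (at least 232-fold) and Hoxa7 at 22.1, 13.9 and 7.19 (at least 164-fold), with no count in liver. Members of groups 10 to 13 of all 4 clusters stood at no more than 0.188 normalised CPM in any fat library. Hoxb4 was the tested gene with the most liver signal, at 3.28, 3.21 and 2.74 in liver against 8.58, 8.0 and 4.71 in fat (-1.20 ± 0.30, adjusted p = 0.00614), and Hoxb2 did not pass (adjusted p = 0.153). Neighbouring Hox genes overlap in the annotation, so single members of the Hoxa and Hoxc clusters may share reads. Hoxa7 and Hoxd8 each overlap an antisense gene as well.

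**Figure D4:**
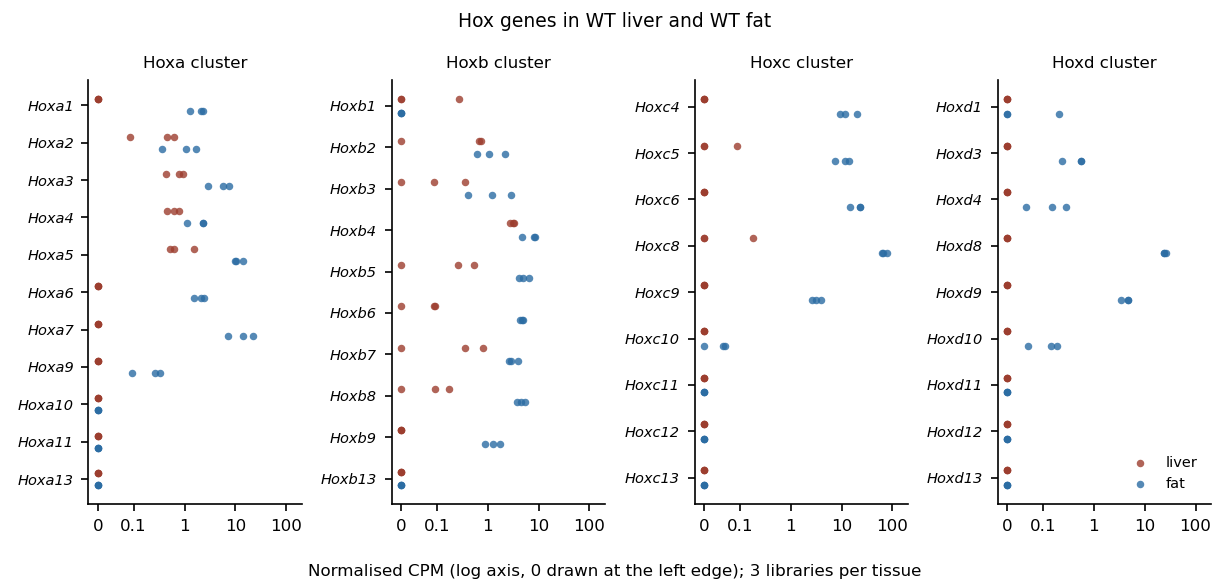
Level of each Hox gene in the 3 WT livers and 3 WT fat libraries (normalised CPM on a log axis with 0 drawn at the left edge), ordered by cluster and position group. Hoxc8 lies highest in fat, and the points of groups 10 to 13 lie at no more than 0.188 normalised CPM.

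Matrix genes stood on the fat side in 43 of 48 cases. Col4a1, a basement membrane collagen, stood at 32.1, 26.7 and 30.1 in liver and 1389.6, 1271 and 1382 in fat (-5.51 ± 0.18, adjusted p = 1.48e-07). Col3a1 stood at 28.6, 15.9 and 16.9 in liver and 907, 608 and 1162 in fat (-5.45 ± 0.36, adjusted p = 4.05e-06). Sparc stood at 44.4, 36.5 and 35.4 in liver and 2099, 3605 and 4118 in fat (-6.40 ± 0.32, adjusted p = 6.03e-07). Thbs1, a matrix protein that activates TGF-beta, stood at 2.04, 2.26 and 1.64 in liver and 1751, 999 and 518 in fat (-9.10 ± 0.59, adjusted p = 1.08e-05), with fat 1 highest. These 4 genes were higher in every fat library than in every liver. The 4 matrix genes higher in liver were Fn1 and Vtn, whose products circulate in plasma, Col18a1 and Col27a1. Vtn stood at 3259.9, 2991 and 2913 in liver and 52.1, 11.4 and 7.14 in fat (7.02 ± 1.03, adjusted p = 0.00230, 8.37 without fat 1) and Col18a1 at 1361, 1285 and 1507 in liver and 222, 232 and 215 in fat (2.63 ± 0.16, adjusted p = 1.47e-06).

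Markers of supporting cells also divided. General endothelial markers were higher in fat in 14 of 14 cases (median -2.79). Of 13 markers of liver sinusoids 8 were higher in liver and 3 in fat, or 6 and 4 with library totals. The summed level of the sinusoid markers was 383, 356 and 360 normalised CPM in liver and 628, 347 and 432 in fat. Cdh5, the cadherin of endothelial junctions, stood at 16.6, 19.2 and 18.3 in liver and 278, 240.1 and 221 in fat (-3.77 ± 0.14, adjusted p = 2.04e-07). Stab2, a scavenger receptor of sinusoids, stood at 57.1, 50.8 and 55.8 in liver and 8.86, 4.47 and 5.28 in fat (3.13 ± 0.25, adjusted p = 8.58e-06). Its relative Stab1, also on the sinusoid list, had a mean of 76.5 in liver and 181.8 in fat. Macrophage markers were higher in fat in 13 of 14, with Cd68 at 3.19, 7.89 and 2.46 in liver and 36.8, 34.9 and 152 in fat (-4.04 ± 0.93, adjusted p = 0.0135, adjusted p = 0.0570 without liver 1, -4.70 without liver 2, adjusted p = 0.0536 without liver 3, -3.0 without fat 3) and fat 3 highest. Of 11 Kupffer cell markers 5 were higher in liver and 3 in fat, or 4 and 5 with library totals. The Kupffer cell lectin Clec4f was on the liver side, at 42.7, 41.2 and 41.7 in liver against 2.40, 0.286 and 0.0517 in fat (5.48 ± 0.90, adjusted p = 0.00358, 7.86 without fat 1). Stellate cell markers were higher in liver in 9 of 11, with Lrat, which stores retinol as ester, at 16.9, 17.7 and 11.5 in liver and 0.377, 0.238 and 0.103 in fat (5.94 ± 0.39, adjusted p = 2.69e-06). Fibroblast markers were higher in fat in 13 of 15, B cell markers in 14 of 15 and T and NK cell markers in 9 of 11. In KO, 10 of these B cell markers but only 2 of these T and NK cell markers were higher in fat. The summed level of the T and NK cell list was low and overlapped between the WT tissues. It was 15.8, 12.2 and 10.1 normalised CPM in liver and 13.9, 22.8 and 23.6 in fat. Pi16 and Cd34, both known from fat precursor cells, stood at 40.7, 34.8 and 29.9 and 108, 112 and 110.4 in fat and between 0 and 2.86 in liver.

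Hormone receptors differed in both directions. Of 42 tested receptors, 16 were higher in liver and 23 in fat, or 10 in liver and 26 in fat with library totals. Gcgr, the glucagon receptor, stood at 429.5, 476 and 466 in liver and 9.05, 2.57 and 1.09 in fat (6.75 ± 0.94, adjusted p = 0.00207, 7.95 without fat 1). Npr3, the clearance receptor of natriuretic peptides, stood at 2.12, 1.82 and 2.74 in liver and 935, 1461 and 1314 in fat (-9.11 ± 0.31, adjusted p = 1.54e-07). Gipr, the receptor of an intestinal incretin, was at 0 in liver and at 7.21, 5.81 and 3.93 in fat (at least 64.2-fold), and Glp1r had at most 0.143 normalised CPM in any library. Insr and Ghr, the receptors of insulin and growth hormone, were present in both tissues. Insr stood at 244, 259 and 250.3 in liver and 202, 161 and 124 in fat (0.63 ± 0.18, adjusted p = 0.0127, adjusted p = 0.0570 without fat 2) and Ghr at 639.6, 699 and 706 in liver and 1087, 1208 and 1086 in fat (-0.72 ± 0.15, adjusted p = 0.00200). Neither pair of ranges overlapped, and with library totals the sign of Insr turned. Egfr, the receptor of epidermal growth factor, varied within liver, highest in liver 1 and lowest in liver 3, at 982, 730.0 and 355, against 97.9, 73.5 and 90.9 in fat (2.98 ± 0.37, adjusted p = 0.000212).

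Among growth factors and their binding proteins, Igf1 stood at 695, 859.8 and 678 in liver and 162, 118 and 117 in fat (2.49 ± 0.20, adjusted p = 7.38e-06), and its receptor Igf1r was higher in fat, at 37.6, 23.6 and 31.0 in fat against 5.05, 5.38 and 8.12 in liver (-2.31 ± 0.25, adjusted p = 4.64e-05). Of the binding proteins, Igfbp1, Igfbp2 and Igfbp4 were higher in liver and Igfbp3, Igfbp5, Igfbp6 and Igfbp7 in fat. Igfbp1 stood at 38.3, 50.3 and 46.7 in liver and 0.613, 0 and 0 in fat (7.69 ± 0.73, adjusted p = 0.000172, and too few counts for a fold without fat 1, 7.10 without fat 2). Igfbp6 stood at 1.42, 1.91 and 2.19 in liver and 133, 91.4 and 106 in fat (-5.90 ± 0.22, adjusted p = 2.04e-07). Fgf21, the fasting hormone of liver, stood at 8.76, 8.67 and 9.31 in liver and 0.471, 0.857 and 0.517 in fat (3.84 ± 0.32, adjusted p = 9.9e-06). Of 33 tested hormones and related secreted proteins, 18 were higher in liver and 12 in fat. Inhbe, a hepatokine of the activin family, stood at 221, 206 and 169 in liver and 4.15, 0.0476 and 0.0517 in fat (7.10 ± 1.35, adjusted p = 0.00684, and too few counts for a fold without fat 1, 6.51 without fat 2), and its known adipocyte receptor Acvr1c at 162, 158 and 119 in fat, with 4 counts over the livers.

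Iron genes were mixed, with 14 of 22 higher in liver and 7 in fat. Hamp, the iron hormone hepcidin, stood at 382, 323 and 452 in liver and 6.27, 0.238 and 0.0517 in fat (7.45 ± 1.64, adjusted p = 0.0117, 11.27 without fat 1, 6.85 without fat 3). The copper oxidases that help load iron onto transferrin divided between the tissues. Cp, ceruloplasmin, stood at 1352, 1352 and 1272 in liver and 249, 103 and 85.0 in fat (3.19 ± 0.42, adjusted p = 0.000378, 3.83 without fat 1). Heph, hephaestin, stood at 0.885, 0.867 and 1.73 in liver and 107, 113 and 107 in fat (-6.55 ± 0.22, adjusted p = 1.48e-07). Likewise the copper pump Atp7b was higher in liver (6.30 ± 0.47, adjusted p = 2.81e-05, 7.12 without fat 1) and Atp7a in fat (-2.37 ± 0.31, adjusted p = 0.000153).

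Mitochondrial genes differed moderately. Of 36 nuclear genes of oxidative phosphorylation 34 were higher in liver, with a median of 1.09. Library totals left 16 higher in liver and 2 in fat. Uqcrq, a subunit of complex III, had the largest difference, at 222, 269.7 and 284 in liver against 44.9, 60.7 and 55.4 in fat (2.27 ± 0.16, adjusted p = 4.15e-06). Of 13 genes of the mitochondrial genome 12 were higher in liver (median 1.33), with mt-Cytb at 13419.7, 14902 and 13876 in liver and 4804, 6391 and 5435 in fat (1.34 ± 0.16, adjusted p = 9.35e-05). As a share of counts, mitochondrial genes took 5.69% ± 0.140 in liver and 4.38% ± 0.588 in fat (SD, n = 3; exact two-sided permutation test, p = 0.10).

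Clock genes did not share a direction, since 11 of 19 were higher in liver and 5 in fat, or 7 in liver and 7 in fat with library totals. Arntl and Clock, which drive the cycle, were higher in fat (-1.58 ± 0.32 and -0.84 ± 0.14, adjusted p = 0.00190 and 0.000586), as was Nr1d1 at 288, 212 and 134 in fat against 131, 103 and 116 in liver (-0.86 ± 0.26, adjusted p = 0.0179, adjusted p = 0.0699 without liver 2, adjusted p = 0.0587 without liver 3, adjusted p = 0.0512 without fat 2). Dbp, an output gene, stood at 255, 251 and 216 in liver and 82.2, 47.7 and 23.5 in fat (2.23 ± 0.45, adjusted p = 0.00573). Bhlhe40 stood at 268, 381 and 275 in liver and 39.3, 34.5 and 30.2 in fat (3.15 ± 0.19, adjusted p = 1.56e-06). Within fat, Dbp, Nr1d1 and Per2 were highest in fat 1 and lowest in fat 3. The time of day of sampling is not given in the sources used here.

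Reference genes often used to scale measurements were not all level. Of 23 tested, 9 were higher in liver and 7 in fat, or 2 and 12 with library totals. Actb, beta-actin, stood at 349.7, 329 and 314 in liver and 1538, 1450.0 and 1359.9 in fat (-2.13 ± 0.15, adjusted p = 3.97e-06). Tbp stood at 20.9, 18.4 and 18.2 in liver and 15.0, 14.2 and 18.8 in fat (0.26 ± 0.16, adjusted p = 0.182) and B2m at 1706, 1874 and 1912 in liver and 1207, 1665 and 2114 in fat (0.14 ± 0.21, adjusted p = 0.578). Neither Tbp nor B2m passed with TMM scaling, and their ranges overlapped. Gapdh, whose many processed copies can take its reads, had a low and uneven level, at 29.4, 32.4 and 32.8 in liver and 3.53, 23.4 and 2.95 in fat (adjusted p = 0.160).

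Chosen pairs of isoenzymes and other related genes often differed in which member led. Over 26 pairs of related genes, the log2 ratio of the first to the second member per transcript length was above 0 on average in liver and below 0 in fat for 20, and the libraries' ratios did not overlap between the tissues for 25. For 18 pairs the first member was higher in liver and the second in fat, each by its own test. The pairs were chosen with earlier results of these data known. These counts therefore describe the chosen pairs alone and give no share for related genes in general. The ratio of the glucose transporter Slc2a2 to the insulin-responsive Slc2a4 was 8.64 ± 1.01 in liver and -5.31 ± 0.78 in fat on the log2 scale (mean ± SD, n = 3). That of the pyruvate kinase Pklr to Pkm was 6.23 ± 0.51 in liver and -7.22 ± 2.25 in fat. For fatty acid binding, Fabp1 to Fabp4 gave 12.06 ± 0.25 in liver and -7.10 ± 2.60 in fat. In each of these 3 pairs the first member led in liver and the second in fat. Of the nuclear receptors for fatty acids, Ppara to Pparg gave 4.23 ± 1.08 and -4.91 ± 0.52, and of the growth factor receptors Fgfr4 to Fgfr1 gave 3.95 ± 0.67 and -8.41 ± 1.52. Ratios had 0.5 counts added to each member, on which the value rests where a member had no count; with 2 counts added, 20 pairs again differed in the leading member.

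Some pairs kept their leader. Pck2 was below Pck1 in both tissues, with log2 ratios of -10.47 ± 0.23 in liver and -7.32 ± 0.65 in fat. Cpt1a led the muscle form Cpt1b in both, at 9.49 ± 0.13 and 10.03 ± 1.70, and this pair's libraries overlapped. Scd1 led Scd2 in both, at 11.09 ± 0.60 and 6.63 ± 1.57, and Pfkl led Pfkp, at 5.71 ± 0.61 and 0.74 ± 0.16. For Fabp1 to Fabp4 the ratio in fat 1 lay nearer to that of liver than the ratios in the other fat libraries did, at -4.28 in fat 1, -7.59 in fat 2 and -9.41 in fat 3.

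**Figure D5:**
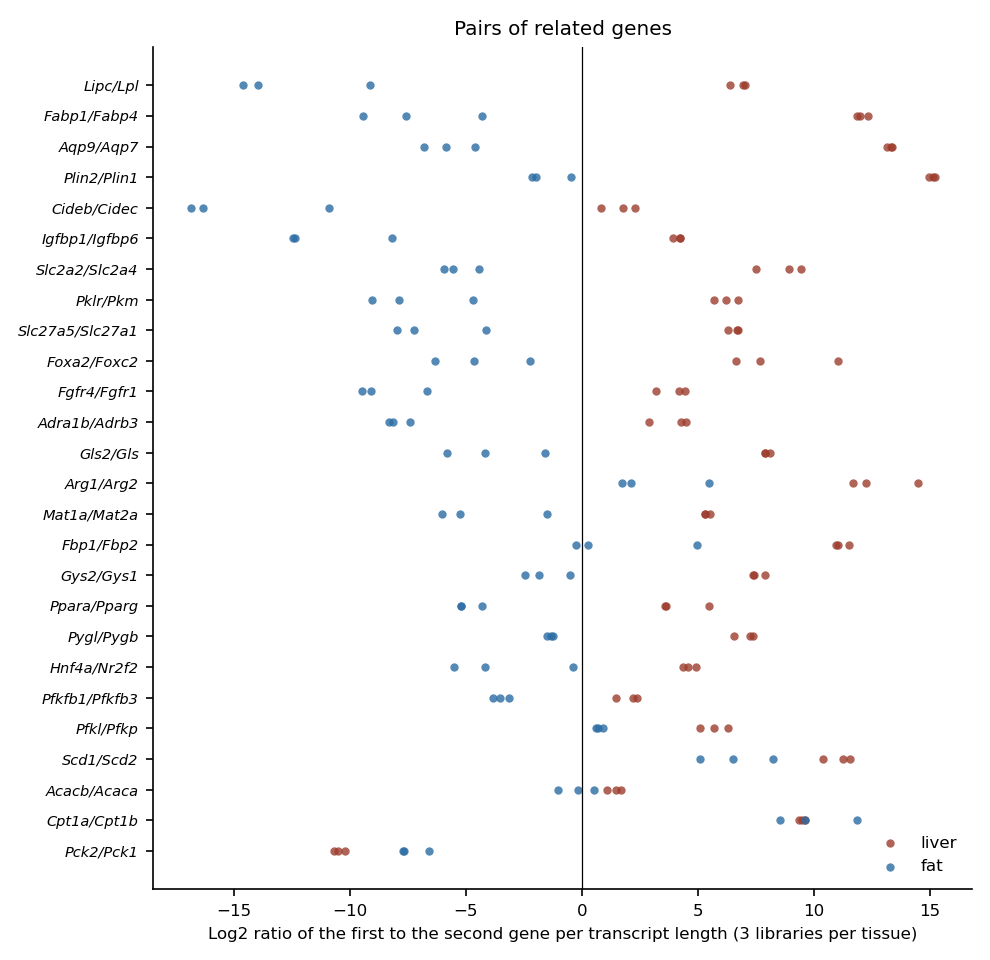
Log2 ratio of the first to the second member of 26 pairs of related genes per transcript length in each WT library (points; 3 livers and 3 fat libraries), with a line at 0 where both members are equal. By their means 20 of these chosen pairs lie to the right of the line in liver and to the left in fat. For 25 the tissues do not overlap.

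Long noncoding RNAs were also divided. Over all 15715 genes tested, 1891 (12.0%) were at least 4-fold higher in liver and 3278 (20.9%) in fat. Of 381 tested lincRNA genes, 96 were at least 4-fold higher in liver and 101 in fat, and of 393 antisense genes 96 and 79. Among those of at least 10 normalised CPM with the largest fitted differences, Gm30262 stood at 26.8, 25.6 and 20.4 in liver and 0.141, 0 and 0.0517 in fat (8.38 ± 0.43, adjusted p = 7.12e-07, and too few counts for a fold without fat 1, and too few counts for a fold without fat 3), and 1810008I18Rik at 43.8, 59.7 and 52.3 in liver and 0.471, 0.0476 and 0.0517 in fat (8.0 ± 0.46, adjusted p = 3.09e-06, and too few counts for a fold without fat 1). Toward fat, 1700047G03Rik was at 0 in liver and at 11.2, 51.0 and 78.4 in fat (at least 517-fold, adjusted p = 0.0277, 0.0714 without fat 3), lowest in fat 1, and Gm5627 was at 0 and at 5.61, 19.6 and 26.8 (at least 192-fold). Both calls ended without the filter on low counts. Their functions are not described in the sources used here. The antisense gene 0610031O16Rik, at 53.6, 59.0 and 65.8 in liver, overlaps Adh7, and without the strand setting of the counting its reads cannot be told from those of Adh7.

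The same contrast was made in the KO livers and fat, which share no library with the WT contrast. Of 15648 genes tested there, 10860 (69.4%) passed. Of the 10843 genes that passed in WT and were tested in KO, 10606 (97.8%) had the same direction, and 9350 passed in KO with it, 86.2% of these WT calls and 88.6% of the KO calls that were tested in WT. Over all genes that passed in both genotypes, 6 did so in opposite directions. Of the 4928 WT genes at least 4-fold apart, 98.1% passed in KO in the same direction. In KO, Alb differed by 7.15 and Lpl by -9.28 on the log2 scale, against 7.87 and -9.86 in WT. KO fat 1, 2 and 3 also held hepatocyte markers, at medians of 2.56, 0.445 and 1.07% of the KO livers with library totals. The difference between the genotypes' tissue differences was tested in all 12 libraries: 0 of 16857 genes passed with edgeR's quasi-likelihood test, 2255 had an unadjusted p under 0.05, DESeq2 called 210 (1.25%) and limma-voom 0. EdgeR called 34 genes when WT fat 1 was left out, 25 when KO fat 1 was, and 1 when WT liver 1 was.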

How the data were processed

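RNA-seq of liver and white fat from WT and KO mice was read from the whole-gene table the authors deposited. Its values are raw read counts per gene, with Ensembl IDs, symbols, lengths and positions in the same table. The library kit was directional per the labels' protocols, and whether counting used strand is not given in the sources used here. CASAVA 1.8, HISAT2 and the builds GRCm38 and mm10 are named in the submitters' processing notes. The members and lists below, and the rule for named genes, given next,, were chosen with earlier results of these data known. Named genes were up to 12 protein-coding genes a direction with the largest called differences at 100 CPM or more and no overlap of the groups, the 10 of highest CPM per kilobase in each tissue, up to 6 called members a direction of each list with any that did not pass, both members of the paralog pairs, and up to 6 long noncoding genes a direction at 10 CPM or more.

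Of 54532 genes, 15715 passed edgeR's filterByExpr in the 6 WT libraries. TMM factors and the robust quasi-likelihood test of edgeR 4.0.16 (R 4.3.3) gave log2 differences, SE and Benjamini-Hochberg adjusted p. Depth was 14531438 to 15971178 counts per library, and levels are normalised counts per 1000000 (CPM). A fold against a tissue at 0 used a floor of 3 counts over its 3 libraries, which covers counting error only. KO libraries were fitted the same way, and the difference between genotypes in all 12 libraries. DESeq2 1.42.0 and limma 3.58.1 (voom) were alternatives. On simulated counts with known differences over 15715 genes for the WT comparison, 41% of genes changed by 1 and 79% of those changed by 2 on the log2 scale were called, and 6.25% of calls were false. Only 100 genes were changed by each amount, and the others were held equal between the tissues. In the data 70.9% of genes passed, so these rates need not hold for the comparison itself. No 2 libraries of a group agreed within sampling noise (chi-square per degree of freedom 9.01 to 69.7). Promoter windows came from RefSeq. Some genes and gene pairs are not reported here.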

Additional observations from a re-analysis of the deposited data

How the results depend on the processing

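Under the alternatives tried, the count of genes that differed between WT liver and fat stayed within 1.5 times 11136 except in the test against a 2-fold difference, which called 6455. Library totals gave 12235 calls, 2691 of them higher in liver against 5270 with TMM. Leaving out 1 library gave 10402 to 11451 calls, and 5375 to 5558 of at least 4-fold against 5169. Same-numbered livers and fat libraries did not deviate together (correlations of 0.00146 to 0.0517 in WT), so the numbers were not taken to pair the samples, and whether a pair came from 1 mouse is not known. With the replicate block 10769 genes were called in WT, 10333 in KO and 0 for the difference between genotypes. In KO, leaving out 1 library gave 10206 to 10964 calls. The difference between genotypes, with 0 calls, gave 21 without the filter, 210 with DESeq2 and 0 to 34 when 1 library was left out, the most without WT fat 1. The share of the top 100 genes differed between the tissues by 15.8 percentage points, 16 without mitochondrial genes and 15.5 to 16.1 with 1 library left out.

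With library totals, 11 branched-chain, 24 uptake and 14 reference genes passed, most of them toward fat where TMM had most toward liver; 18 nuclear oxidative and 7 mitochondrially encoded genes passed, and DESeq2 called 23 uptake genes with a majority in fat. Kupffer cell markers had 9 calls with library totals, 4 of them in liver. With library totals the log2 difference turned negative for B2m at -0.69, Cebpa at -0.24, Ces1d at -0.63, Fth1 at -0.75, Gcsh at -0.24, Gpd1 at -0.071, Gstz1 at -0.13, Hmgcs1 at -0.45, Insr at -0.20, Mvk at -0.67, Pcx at -0.51, Plin3 at -0.76, Scd1 at -0.35 and Tbp at -0.57. With upper quartile factors it turned negative for B2m at -0.033, Fth1 at -0.093, Mvk at -0.017 and Plin3 at -0.10. When 1 library was left out, genes that did not pass and whose sign turned ranged, on the log2 scale, as follows: Acaca from -0.49 to 0.017, B2m from -0.034 to 0.33, Ces1d from -0.11 to 0.53, Dgat2 from -0.42 to 0.077, Fasn from -0.37 to 0.0064 and Plin3 from -0.014 to 0.13. Of 227 named genes, 189 kept direction and call in every alternative run. The cause of these moves was not tested. At this depth a level of 3 counts in 1 library equals up to 0.274 normalised CPM, and lower levels rest on fewer counts.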

Other observations

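Genes known from thermogenic fat had no common direction. Of 12 tested, 6 were higher in liver and 4 in fat. Eva1a stood at 181, 162 and 186 normalised CPM in liver and 4.24, 3.57 and 1.76 in fat (5.78 ± 0.30, adjusted p = 1.83e-06). Kcnk3, a potassium channel of adipocytes, stood at 0.531, 0.607 and 0.0913 in liver and 26.5, 48.3 and 39.5 in fat (-6.50 ± 0.43, adjusted p = 3.78e-06), and Ckb, a creatine kinase, at 3.28, 3.38 and 3.29 in liver and 40.0, 59.5 and 75.6 in fat (-4.13 ± 0.26, adjusted p = 2.27e-06). The ranges of these 3 genes did not overlap. Cidea, a droplet protein of brown fat, varied within liver at 0.0885, 5.29 and 16.1, lowest in liver 1, against 0.518, 1.57 and 1.40 in fat, and did not pass (adjusted p = 0.136).

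Bile duct markers were split as well, 4 of 11 higher in liver and 4 in fat. Krt19, a keratin of bile ducts and mesothelium, stood at 0.708, 2.60 and 0.913 normalised CPM in liver and 29.4, 34.3 and 27.0 in fat (-4.41 ± 0.39, adjusted p = 2.16e-05, -5.20 without liver 2). Aqp1, a water channel of bile ducts and endothelium, stood at 92.0, 81.9 and 75.4 in liver and 536, 500.2 and 441 in fat (-2.57 ± 0.16, adjusted p = 1.65e-06). Markers of Schwann cells and nerve were higher in fat for 4 of 5 genes tested and in liver for 0.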
